A study of Mus musculus with 2 samples.

Results

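The replication-dependent histone genes encode the linker histone H1 and the core histones H2A, H2B, H3 and H4 that package newly copied DNA. Members were chosen by name, as the rows of the count table whose Ensembl identifier belongs to a protein-coding gene of GENCODE release M21 with a symbol of the form Hist, a digit and h. That annotation holds 67 such genes, and 65 were among the 46983 rows of the table. Hist1h2bm and Hist1h2bh were not analysed here. By symbol, 52 members belonged to the Hist1 cluster on chromosome 13 (21715763 to 23934851, build GRCm38), 10 to Hist2 on chromosome 3 (96219865 to 96270132), 2 to Hist3 on chromosome 11 (58948920 to 58956830) and 1 to Hist4 on chromosome 6 (136801553 to 136804415). By class, 6 encoded H1, 18 H2A, 16 H2B, 12 H3 and 13 H4.

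RNA was sequenced from mouse 46C embryonic stem cells, 1 library from cells carrying a pLKO.1 short hairpin against the long noncoding RNA linc1557 and 1 from cells carrying a control hairpin. Both sets of cells were infected with virus, selected with puromycin and picked as stably infected clones, and the labels do not give the number of clones in either library. The labels describe culture on feeder cells in serum medium with leukaemia inhibitory factor (LIF), and also assays without LIF, which they tie to neither library. Per gene the deposited table gave raw read counts, 26693282 in all in the knockdown library against 23146210 in the control library, and the row of linc1557 was not identified, so its level was not analysed here. With a single library in each group the differences have no replicate check, and no test or p-value could be given.

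In the cell cycle, histone messenger RNAs of this kind accumulate in S phase, when NPAT, activated by cyclin E and CDK2, drives their transcription. They have no introns as a rule and no poly(A) tail. Their 3′ end is cut just after a short stem-loop, which the stem-loop binding protein SLBP holds through processing, export and translation, and the U7 small nuclear ribonucleoprotein guides the cut. Several of these genes are also known to yield polyadenylated transcripts, among others in differentiated cells. The labels name an Illumina TruSeq RNA kit and total RNA but no selection step, so how far tailless messenger RNA was captured is not known.

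The family as a whole took nearly the same amount of both libraries, while its classes and clusters differed in opposite directions. The 65 members took 210147 counts under the linc1557 hairpin and 196968 under the control hairpin, a share of 0.787% (0.784 to 0.791) in the knockdown library against 0.851% (0.847 to 0.855) in the control library. Scaled by trimmed mean of M values (TMM), the sum had a log2 ratio of knockdown over control of 0.01 (-0.00 to 0.01). H1 sums were higher in the knockdown library, H4 sums lower, and the sums of Hist2, Hist3 and Hist4 lower than that of Hist1. In bulk RNA, fewer cells in S phase and less histone RNA per cell cannot be told apart. Brackets throughout are 95% intervals that cover counting error only, not the spread between cultures or clones. They are exact for ratios of 2 counts, Wilson intervals for shares of a library and normal approximations for differences between sums. Scaling by total counts in place of TMM lowered every log2 ratio, and the median of all genes, by 0.12, which turned the sum of the family to -0.11. Any such scaling adds 1 constant to all ratios, so the differences between members given below do not depend on it.

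A gene entered when it reached 1 TMM-scaled CPM (counts relative to library size) in either library, and it was called when its normalised counts differed by at least 2-fold with an interval that excluded equality. All 65 members entered. None was called higher, beside 4.68% of the 15850 entered genes, and 1, Hist4h4, was called lower, beside 9.48%. Of entered genes with a mean of at least 500 counts over both libraries, a depth that 59 members reached, 1.07% were called higher and 2.97% lower. The median log2 ratio of the members was 0.03, against 0.02 for all entered genes, and their quartiles were -0.14 and 0.14, against -0.35 and 0.33. Of the members, 58 lay within 0.5 of equality on the log2 scale, which is 89.2% against 64.8% of all entered genes. At a mean of at least 500 counts, 55 of 59 members and 80.7% of 6434 genes lay within that bound. Intervals excluded equality, at any size, on the higher side for 25 members and on the lower side for 20, while 32.8% and 31.2% of all entered genes did so.

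Markers of the cells in the culture were read beside the values of the family. All 9 embryonic stem cell markers were present in both libraries, with none called and a median of 0.27. Of 20 markers of feeder fibroblasts, 13 were called lower and 0 higher in the knockdown library, with a median of -1.51. Summed, they reached 1865 CPM in the knockdown library and 3039.8 CPM in the control library, and none was at 0 in either. Their part in the lower values of H4 and of Hist2, Hist3 and Hist4, and in the higher values of H1, given below was not tested, and that of the clones picked cannot be told apart from that of the hairpin.

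**Figure D1:**
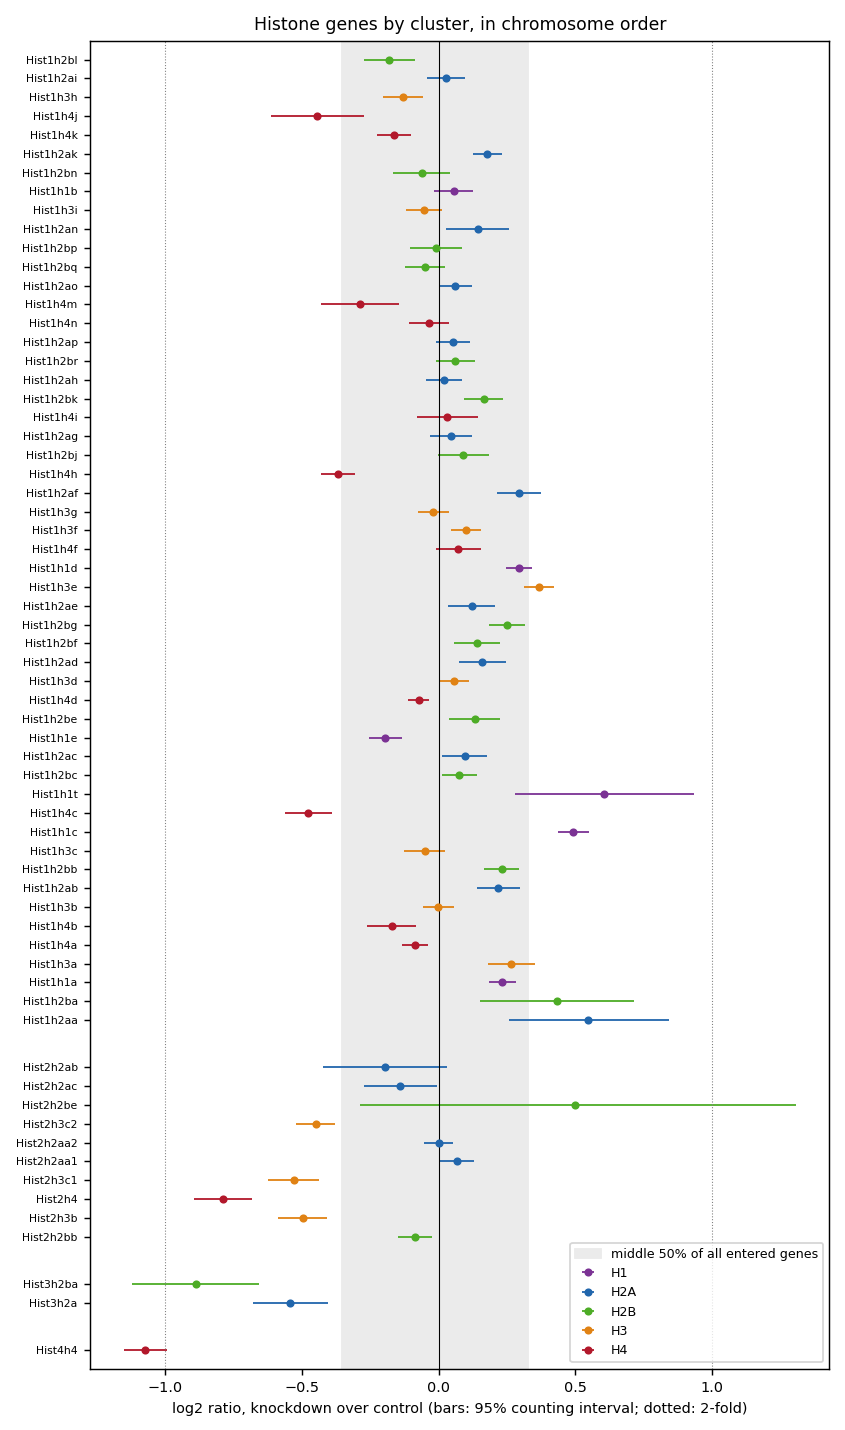
Log2 ratio of knockdown over control (x axis) for each of the 65 members (y axis, grouped by cluster in chromosome order and coloured by class), with bars for the 95% counting interval, a grey band for the middle 50% of all entered genes and dotted lines at 2-fold. Hist4h4 at -1.07 alone lies beyond a dotted line, and H4 members lie to the left of equality with TMM in 11 of 13 cases.

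The 3′ stem-loop was read from the annotated transcripts to see whether the members carry the element that defines this kind of gene. A perfect stem of 6 bases that opens with GG and closes with CC around a loop of 4 bases that opens with TT was searched after the stop codon. For 15 members the annotated transcript ended too early to search. Of the other 50, 42 held such a stem-loop, in 6 forms, from 21 to 58 bases after the stop codon (median 31.5). The 26-base windows below are from the GENCODE transcripts of build GRCm38, 5′ to 3′ on the strand of the gene. They show the stem-loop in capitals for the H4 genes with the lowest ratios, the H4 gene with the highest level, and examples of the other forms.
Hist4h4 (chr6:136803993-136804018, - strand): acaaaGGCCCTTTTCAGGGCCcacaa
Hist2h4 (chr3:96262934-96262959, - strand): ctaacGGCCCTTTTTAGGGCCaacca
Hist1h4d (chr13:23581945-23581970, + strand): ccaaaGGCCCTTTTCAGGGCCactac
Hist1h4b (chr13:23757361-23757386, + strand): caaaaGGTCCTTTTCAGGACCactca
Hist1h1c (chr13:23739507-23739532, + strand): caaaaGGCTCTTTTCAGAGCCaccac
Hist2h3c2 (chr3:96238480-96238505, - strand): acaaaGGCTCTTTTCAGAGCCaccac
Hist3h2ba (chr11:58949344-58949369, + strand): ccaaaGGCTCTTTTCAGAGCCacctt
Hist1h1t (chr13:23696520-23696545, + strand): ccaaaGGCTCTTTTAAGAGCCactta
Hist2h2ac (chr3:96220413-96220438, - strand): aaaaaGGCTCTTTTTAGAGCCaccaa

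The letters of the stem differed between H4 and the other classes. The form of Hist1h1c, Hist2h3c2 and Hist3h2ba, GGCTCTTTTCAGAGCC, occurred in 24 members of all classes other than H4. That of Hist4h4 and Hist1h4d, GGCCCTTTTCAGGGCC, occurred in 7 members, all H4. All 11 H4 genes with a stem-loop had CC or TC as bases 3 and 4 of the stem, and all 31 members of other classes had CT there. Hist4h4, with the lowest ratio of the family, and Hist1h4d, close to equality, carried the same 16 bases. The 42 members with a stem-loop had a median log2 ratio of 0.05, and the 8 members with a searchable tail but no such stem-loop had a median of 0.02.

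H1, the linker histone that binds DNA at the entry and exit of the nucleosome, was the class with the highest sums relative to control. Its 6 genes took 29578 counts in the knockdown library against 24101 in the control library, a log2 ratio of 0.21 (0.18 to 0.23), with a median over genes of 0.26. Hist1h1c had 6217 knockdown and 4160 control counts, a ratio of 0.49 (0.44 to 0.55). Hist1h1d had 8236 counts under the linc1557 hairpin and 6325 under the control hairpin (0.29, 0.25 to 0.34), and Hist1h1a had 7171 knockdown and 5741 control counts (0.23, 0.18 to 0.28). These 3 genes carried most of the difference in the class. Hist1h1b had 3493 counts in the knockdown library against 3165 in the control library (0.05, -0.01 to 0.12, and -0.06 with total counts). Hist1h1e was lower, with 4254 counts under the linc1557 hairpin and 4582 under the control hairpin (-0.19, -0.26 to -0.13). Its GENCODE M21 span overlaps that of Hist1h2be on the same strand, but it has 1930 annotated bases against a deposited 748. Whether the deposited models of the 2 genes overlap is not known.

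Hist1h1t, the linker histone of spermatocytes, had 207 counts in the knockdown library against 128 in the control library, a ratio of 0.61 (0.28 to 0.94), the highest of all members. Hist1h2aa and Hist1h2ba, which encode the testis H2A and H2B variants that enter chromatin in spermatogenesis, had 250 knockdown and 161 control counts (0.55, 0.26 to 0.84) and 258 knockdown and 180 control counts (0.43, 0.15 to 0.71). All 3 were among the 5 highest ratios. Summed, they had 715 counts under the linc1557 hairpin and 469 under the control hairpin, a log2 ratio of 0.52 (0.35 to 0.69). That sum was not among those planned, and as its genes stand at the top of the ratios it gives no separate evidence. Their levels were low. As RPKM, the normalised CPM per kilobase of the deposited gene length, Hist1h1t reached 11.1 in the knockdown library against 7.28 in the control library, while Hist1h1a reached 436.0 in knockdown and 370.8 in control. Hist1h2aa and Hist1h2ba stand head to head on opposite strands with 305 bases between their starts.

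H4, which pairs with H3 to form the core tetramer, was the class with the lowest sums. Its 13 genes took 42042 counts under the linc1557 hairpin and 46129 under the control hairpin, a log2 ratio of -0.22 (-0.24 to -0.20), with a median over genes of -0.17. Intervals lay below equality for 10 of the 13 genes and above it for none, beside 31.2% and 32.8% of all entered genes. Several of these H4 genes share sequence, so their values may rest in part on the same reads. Over the 13 genes, the share of 50-base transcript stretches found in no other gene ran from 10.2% to 99.0%, with a median of 60.5%. The difference between the H1 and the H4 log2 ratios was 0.43 (0.40 to 0.46). All 13 H4 genes encode the same protein of 103 residues through 12 different coding sequences, so the genes differ in transcript and not in product.

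Hist4h4, the single gene of its cluster, had 1973 counts in the knockdown library against 3904 in the control library and was 2.10-fold lower (1.99 to 2.22). In RPKM its level was 26.9 under the linc1557 hairpin and 56.5 under the control hairpin. Hist2h4 had 1175 knockdown and 1911 control counts, a log2 ratio of -0.79 (-0.90 to -0.68). Together these H4 genes outside Hist1 had 3148 counts in the knockdown library against 5815 in the control library (-0.97, -1.04 to -0.91). The 11 H4 genes inside Hist1 had 38894 knockdown and 40314 control counts (-0.14, -0.16 to -0.12), so the genes outside Hist1 lay lower by 0.83 (0.77 to 0.90). Leaving Hist4h4 and Hist2h4 aside, H4 in Hist1 was still below H3 in Hist1, by 0.21 on the log2 scale (0.18 to 0.23).

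Within Hist1 the H4 genes were not alike. Hist1h4d had 11464 counts under the linc1557 hairpin and 11350 under the control hairpin (-0.07, -0.11 to -0.04), and at 1139 RPKM in knockdown and 1198 RPKM in control it had the highest level of all members in both libraries. Hist1h4a, with 7393 knockdown and 7386 control counts (-0.09, -0.13 to -0.04), and Hist1h4k, with 4227 knockdown and 4455 control counts (-0.16, -0.22 to -0.10), followed it in level. These 3 genes lay closer to equality than the class sum of -0.22, but level and ratio did not go together throughout. Hist1h4h, at rank 4 of the H4 levels in the control library, was among the lower ratios. Hist1h4f and Hist1h4i, named after their values were seen, had lower levels and ratios of 0.07 (-0.01 to 0.16) and 0.03 (-0.08 to 0.14). Hist1h4c had 1922 knockdown and 2517 control counts (-0.48, -0.56 to -0.39), Hist1h4j 508 knockdown and 650 control counts (-0.44, -0.61 to -0.27) and Hist1h4h 3842 knockdown and 4662 control counts (-0.37, -0.43 to -0.30), 3 genes named after their values were seen. Without Hist1h4d the sum of the class was -0.27.

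**Figure D2:**
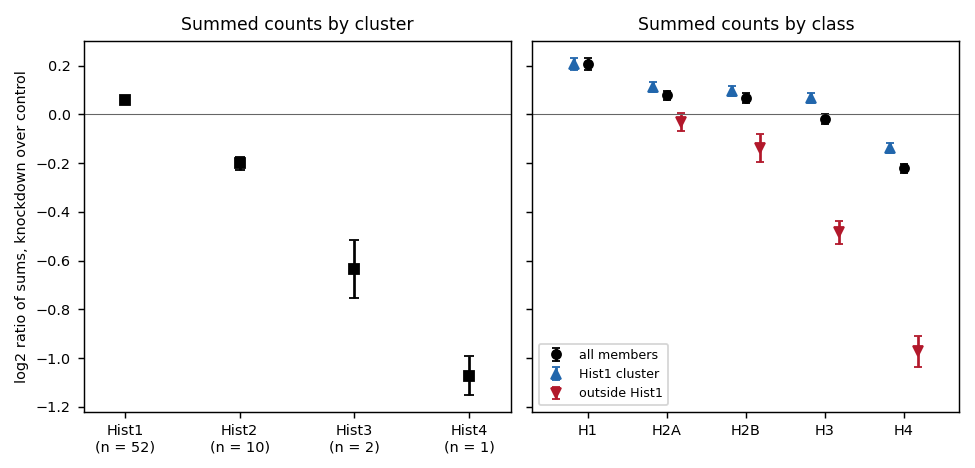
Log2 ratio of summed counts, knockdown over control, by cluster (left panel) and by class (right panel, black circles for all members, blue upward triangles for Hist1, red downward triangles for the genes outside Hist1), with bars for the 95% counting interval. The clusters descend from 0.06 for Hist1 to -1.07 for Hist4, and in H2A, H2B, H3 and H4 the genes outside Hist1 lie below those inside it.

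The H3 genes of Hist2 were lower in the knockdown library than those of Hist1. The 12 H3 genes took 46508 counts in the knockdown library against 44368 in the control library, a log2 ratio of -0.02 (-0.04 to -0.00) that was 0.02 with DESeq2 size factors. In Hist1, 9 H3 genes summed to 40340 knockdown and 36248 control counts (0.07, 0.05 to 0.09). In Hist2, 3 H3 genes summed to 6168 knockdown and 8120 control counts (-0.48, -0.53 to -0.44), lower than in Hist1 by 0.55 (0.50 to 0.60). Hist2h3c1 had 1634 knockdown and 2219 control counts (-0.53, -0.62 to -0.44), Hist2h3b 1738 knockdown and 2309 control counts (-0.50, -0.59 to -0.41) and Hist2h3c2 2796 knockdown and 3592 control counts (-0.45, -0.52 to -0.38). The 3 genes thus had like ratios, and all of them were below every H3 gene of Hist1. They also share sequence, so the 3 values may rest in part on the same reads.

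The annotated H3 frames fell into 3 proteins. One of 136 residues came from 7 genes, 5 in Hist1 along with Hist2h3b and Hist2h3c2, with 30328 counts under the linc1557 hairpin and 28374 under the control hairpin (0.01, -0.01 to 0.03). The other of 136 residues came from Hist1h3a, Hist1h3g, Hist1h3h and Hist1h3i, with 14546 knockdown and 13775 control counts (-0.01, -0.04 to 0.02). The sums of these 2 proteins thus lay close to equality. Hist2h3c1, at -0.53, has a longer annotated frame of 181 residues. Hist1h3g had the highest H3 level, 493 RPKM in the knockdown library against 499.7 in the control library (-0.02, -0.07 to 0.04), followed by Hist1h3d with 405 RPKM in knockdown and 390 RPKM in control (0.06, 0.00 to 0.11) and Hist1h3i with 353 RPKM in knockdown and 367 RPKM in control (-0.05, -0.12 to 0.01). Hist1h3e, named after its values were seen, had 6299 knockdown and 4596 control counts (0.37, 0.31 to 0.42), the highest H3 ratio.

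H2A and H2B form the dimers that flank the tetramer. Over all clusters H2A took 52800 counts under the linc1557 hairpin and 47100 under the control hairpin (0.08, 0.06 to 0.10), and H2B 39219 knockdown and 35270 control counts (0.07, 0.04 to 0.09). With total counts as the scale both signs turned, to -0.04 and -0.05. In Hist1 alone the sums were 0.11 (0.09 to 0.13) for H2A and 0.10 (0.07 to 0.12) for H2B with TMM, both smaller than the 0.12 by which total counts lower every ratio. All 13 H2A genes of Hist1 had ratios above 0 with TMM, between 0.02 and 0.55. Hist1h2ak had the highest H2A level, with 623 RPKM in the knockdown library against 551 in the control library (0.18, 0.12 to 0.23), ahead of Hist2h2aa2 with 442 RPKM in each (0.00, -0.05 to 0.05) and Hist1h2ao with 392 RPKM in knockdown and 376 RPKM in control (0.06, 0.00 to 0.12). Among H2B genes the highest levels were those of Hist2h2bb, 447 RPKM under the linc1557 hairpin and 475 under the control hairpin (-0.09, -0.15 to -0.02), Hist1h2bb, 385 in knockdown and 329 in control (0.23, 0.17 to 0.29), and Hist1h2bg, 335 in knockdown and 282 in control (0.25, 0.18 to 0.32).

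**Figure D3:**
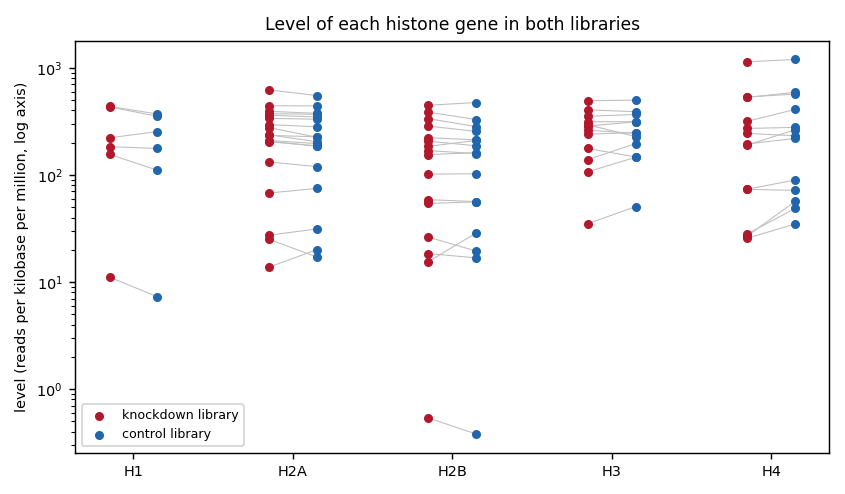
Level of each member in RPKM, normalised CPM per kilobase of gene length (y axis, log scale) by class (x axis), with the knockdown library on the left in red, the control library on the right in blue and a line joining the values of 1 gene. Hist2h2be is lowest, at 0.536 in the knockdown library against 0.380 in the control library, and Hist1h4d highest, at 1139 in the knockdown and 1198 in the control, and most lines are close to level.

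In Hist2 the H3 and H4 genes had ratios between -0.79 and -0.45, and the H2A and H2B genes had ratios between -0.19 and 0.50. Hist2h2aa2 had 5982 counts under the linc1557 hairpin and 5626 under the control hairpin, and Hist2h2aa1 had 4427 knockdown and 3978 control counts (0.07, 0.00 to 0.13). Hist2h2bb had 4365 knockdown and 4360 control counts. Hist2h2ac had 903 knockdown and 937 control counts (-0.14, -0.27 to -0.01), and Hist2h2ab had 311 knockdown and 335 control counts (-0.19, -0.42 to 0.03). Hist2h2be had the fewest counts of the family, 36 in the knockdown library against 24 in the control library, and its ratio of 0.50 had an interval from -0.29 to 1.31, so no difference was detectable at this depth. As a whole Hist2 took 23367 knockdown and 25291 control counts, a log2 ratio of -0.20 (-0.23 to -0.18).

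Both Hist3 genes were lower in the knockdown library without being called. Hist3h2ba had 244 counts under the linc1557 hairpin and 425 under the control hairpin (-0.89, -1.12 to -0.66), the second lowest ratio of the family, and reached the fold for a call with total-count scaling (-1.01). Hist3h2a had 756 knockdown and 1036 control counts (-0.54, -0.68 to -0.41). Its span overlaps that of Trim17 on the same strand, and Trim17 had 747 counts in the knockdown library against 1013 in the control library, so reads of the overlap cannot be assigned to either gene. Summed, Hist3 had 1000 counts under the linc1557 hairpin and 1461 under the control hairpin (-0.63, -0.75 to -0.52). Relative to Hist1, whose sum was 183807 knockdown and 166312 control counts (0.06, 0.05 to 0.07, and -0.06 with total counts), Hist2 lay lower by 0.26 (0.23 to 0.29), Hist3 by 0.69 (0.57 to 0.81) and Hist4 by 1.13 (1.05 to 1.21).

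A stretch without members divides Hist1 into blocks, between the end of Hist1h2bj at 22043676 and the start of Hist1h4h at 23531050 on chromosome 13, and the members on either side of it were summed. The 22 members before the stretch had 64181 counts in the knockdown library against 59998 in the control library (0.01, -0.01 to 0.03). The 30 members after it had 119626 knockdown and 106314 control counts (0.08, 0.07 to 0.09), and 5 of the 6 H1 genes and the testis variants lie among them. Protein-coding genes within 500 kb of a cluster were read beside it. Of all entered genes, 4.68% were called higher and 9.48% lower. Around Hist1, 13 such genes had a median log2 ratio of 0.24, with 1 called higher and 0 lower. Around Hist2, 30 genes had a median of 0.10, with 4 higher and 2 lower. Around Hist3, 15 genes had a median of 0.12, with 0 higher and 1 lower. Around Hist4, 8 genes had a median of -0.38 and a range from -3.46 to 1.34, with 1 higher and 3 lower. The values around Hist4 thus varied widely on both sides of that of Hist4h4.

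Head-to-head pairs of 1 H2A and 1 H2B gene share the DNA between their starts, and 12 such pairs with at most 400 bases between them were found, holding 24 members at gaps of 175 to 305 bases. The ratios of the partners differed by a median of 0.12 on the log2 scale, and in 7 of 12 pairs they had the same sign. The largest difference, 0.64, was that of Hist2h2ac and Hist2h2be, where counting error is large. Hist1h2bf and Hist1h2ad, named after their values were seen, had 2437 knockdown and 2081 control counts and 2451 knockdown and 2065 control counts, ratios of 0.14 and 0.16.

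Promoters were taken from a RefSeq table of build GRCm38.p6 that gives 250 bases before and 50 after the start of each gene. Of the 65 members 60 were matched, with 61 promoters. Searched were the TATA box as TATAAA on the strand of the gene, CCAAT on either strand, and the octamer ATTTGCAT, the site known for OCT1 in H2B promoters, on either strand. TATAAA was in 49.2% of member promoters against 8.32% of all 32851 in the table, CCAAT in 85.2% against 37.4%, and the octamer in 21.3% against 1.73%. Matches were counted anywhere in the window. That of TATAAA lay, for instance, at position -250 from the annotated start in Hist1h4f and at 41 in Hist1h4a. CCAAT was in every H1, H2A, H2B and H3 promoter matched but in 3 of 12 H4 promoters. The octamer was in 7 of 18 H2A and 6 of 15 H2B promoters and in none of the other classes. Windows of head-to-head partners overlap, so the same site can count for both, as in Hist1h2aa and Hist1h2ba. The promoters below are those of the gene with the lowest ratio, of the H4 gene with the highest level, and of Hist1h2aa, whose window covers most of the DNA it shares with Hist1h2ba. Motif matches are in capitals, including ATTGG and ATGCAAAT, the reverse strands of CCAAT and the octamer.
Hist4h4 promoter (chr6:136804382-136804681, - strand): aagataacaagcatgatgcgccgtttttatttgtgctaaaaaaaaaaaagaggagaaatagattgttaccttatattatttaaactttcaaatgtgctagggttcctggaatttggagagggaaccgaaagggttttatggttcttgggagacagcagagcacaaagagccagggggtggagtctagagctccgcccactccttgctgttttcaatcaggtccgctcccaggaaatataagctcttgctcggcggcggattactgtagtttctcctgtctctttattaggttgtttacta
Hist1h4d promoter (chr13:23581318-23581617, + strand): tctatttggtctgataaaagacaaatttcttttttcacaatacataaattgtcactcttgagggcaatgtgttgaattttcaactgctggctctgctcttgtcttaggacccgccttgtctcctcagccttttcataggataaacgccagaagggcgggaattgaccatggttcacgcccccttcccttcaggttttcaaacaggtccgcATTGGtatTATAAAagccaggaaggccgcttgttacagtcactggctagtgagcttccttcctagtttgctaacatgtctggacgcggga
Hist1h2aa promoter (chr13:23934187-23934486, + strand): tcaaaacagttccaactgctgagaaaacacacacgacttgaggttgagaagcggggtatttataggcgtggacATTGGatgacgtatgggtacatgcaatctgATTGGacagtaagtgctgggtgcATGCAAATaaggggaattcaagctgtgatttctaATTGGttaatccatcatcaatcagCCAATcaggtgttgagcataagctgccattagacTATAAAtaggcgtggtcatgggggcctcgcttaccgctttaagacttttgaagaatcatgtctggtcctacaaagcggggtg

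Hist1h4d held TATAAA at position -32 from the annotated start and 1 CCAAT, read as ATTGG. Hist1h2aa held TATAAA at -32, 4 CCAAT and 1 octamer. In the Hist4h4 window none of the 3 sets of letters was found. A match is a run of letters and no measured site, and no binding was measured here.

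Many members share stretches of sequence with other annotated genes, either copies elsewhere or genes that overlap them, and reads there cannot be assigned to 1 gene. Each annotated transcript was split into all stretches of 50 bases, and the share found in no other gene was counted. The transcripts were those of GENCODE M21, whose length equalled the deposited gene length for 45 of the 65 members. Hist1h4d, with 89.8% to itself, had 1138 annotated bases against a deposited 393. Hist1h2ac, with 85.9%, had 2482 against 476. For members of unequal length the share in the deposited model is not known. The median member had 45.0% of such stretches to itself, and the range was 0 to 100%. Hist2h2aa1, Hist2h2aa2, Hist2h3b, Hist2h3c1 and Hist2h2bb had none, also at 100 bases, yet held from 1634 to 5982 counts in the knockdown library. Hist2h2aa1 and Hist2h2aa2 each shared such stretches with 44 genes and the 2 H3 genes each with 13. Hist2h2bb shared them with 2 genes, and 2 annotated genes overlap it. Reads no longer than these stretches could not be assigned to these genes alone, and the labels do not give the read length. Shared reads may thus have been counted in some way, and a sum over members may hold a read more than once. The 31 members with at least 50% to themselves had a median log2 ratio of 0.07, and the other 34 had 0.00. Among the genes with the lowest ratios, Hist2h4 had 99.0%, Hist4h4 91.5% and Hist3h2ba 77.9% of stretches to themselves. The annotated and deposited lengths of these genes were equal. With the 34 members left out, the H4 sum was -0.25, the H3 sum 0.08 and the Hist2 sum -0.76. The Hist2 sum then rested on Hist2h4 and Hist2h2be alone. The 34 were chosen by their annotated transcripts, and a choice by the deposited models was not tested.

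**Figure D4:**
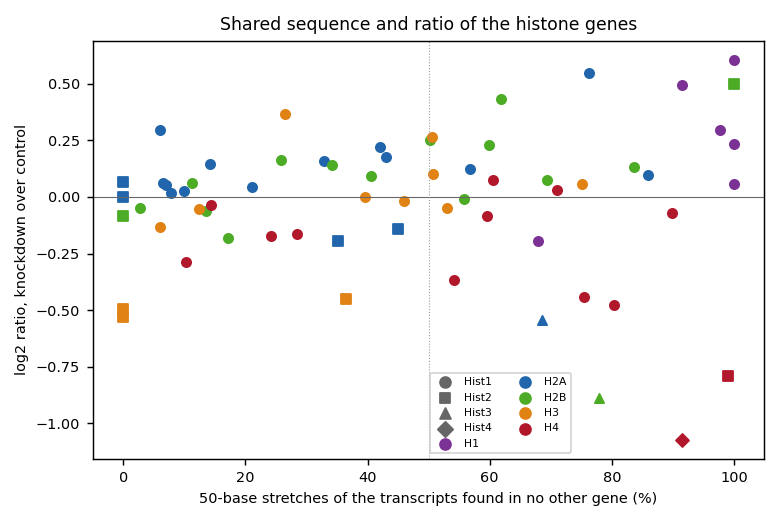
Log2 ratio of knockdown over control (y axis) against the percentage of 50-base GENCODE M21 transcript stretches found in no other gene (x axis). The 65 members are coloured by class and shaped by cluster, with a dotted line at 50%. Hist4h4, Hist3h2ba, Hist2h4 and Hist3h2a lie to the right of the line and low, while the Hist2 H3 genes lie to its left.

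Overlap with other annotated genes was frequent as well. By their GENCODE M21 spans, 24 of the 65 members overlap another gene and 3 overlap a protein-coding one. Hist2h2aa1 and Hist2h3c1 both lie within Gm20634 on the same strand, which had 6064 counts under the linc1557 hairpin and 6208 under the control hairpin, close to the sum of the 2 members in each. Hist2h2bb overlaps the long noncoding Gm42743 on the same strand, with 4135 knockdown and 4072 control counts. Gene models also differ in length. A split at 1000 bases of the deposited length, chosen after the values were seen, left 10 longer models. The 6 outside Hist1 summed to 8370 counts in the knockdown library against 12686 in the control library (-0.69, -0.73 to -0.65). The 4 in Hist1 summed to 14684 knockdown and 11928 control counts (0.21, 0.18 to 0.25). In GENCODE M21 more Hist1 members exceed 1000 bases, such as Hist1h1d with 7425 bases against a deposited 744. The 7 shorter models outside Hist1 held 17970 counts in each library (-0.09, -0.12 to -0.06). The annotated Hist4h4 transcript runs 2445 bases past its stem-loop, and counts per gene do not separate reads before it from reads after it.

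The machinery of histone messenger RNA was read from a list of 30 genes for transcription and 3′ processing. None was called in either direction, and the median log2 ratio was 0.09, with a range from -0.36 to 0.52. Of all entered genes, beside which this list and those below are set, 4.68% were called higher and 9.48% lower. Npat, the coactivator of histone transcription, had 2575 counts under the linc1557 hairpin and 1850 under the control hairpin (0.39, 0.30 to 0.48). Casp8ap2, which encodes FLASH, a bridge to the U7 particle, had 4009 knockdown and 2638 control counts (0.52, 0.44 to 0.59). Slbp had 2657 knockdown and 2274 control counts (0.14, 0.06 to 0.22). Of the parts of the U7 particle and its partner, Lsm10 had 169 knockdown and 165 control counts (-0.05, -0.37 to 0.27), Lsm11 had 224 knockdown and 202 control counts (0.06, -0.22 to 0.34), and Zfp473 had 681 knockdown and 722 control counts (-0.17, -0.32 to -0.02). Each of these differed by less than 2-fold. The genes with most counts on the list, Srrt of the RNA cap complex and the cyclin gene Ccna2, had 5426 knockdown and 5019 control counts (0.03, -0.03 to 0.08) and 4564 knockdown and 4571 control counts (-0.09, -0.15 to -0.03).

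Histone chaperones, which carry new histones to DNA, gave 24 entered genes, again with none called and a median of 0.18. Npm1, a nucleolar chaperone, had 59603 counts in the knockdown library against 58380 in the control library (-0.06, -0.07 to -0.04), and Nasp, which holds free H3 and H4, had 16661 knockdown and 15547 control counts (0.01, -0.02 to 0.04). The ends of the range, named for that reason after their values were seen, were Ipo4, an importin for H3 and H4, with 837 knockdown and 1562 control counts (-0.99, -1.11 to -0.87), and Asf1b, with 866 knockdown and 544 control counts (0.58, 0.43 to 0.74). Of 19 replication-independent histone variant genes 12 entered, with none called and a median of 0.11. H2afz, which encodes H2A.Z, had 9237 knockdown and 8003 control counts (0.12, 0.08 to 0.16), and H3f3b, 1 of the H3.3 genes, had 9061 knockdown and 7731 control counts (0.14, 0.10 to 0.19).

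Genes for DNA replication, which share their phase of the cell cycle with the histone genes, lay higher than the histone genes themselves. Of 42 genes none was called, beside 4.68% of all entered genes called higher and 9.48% lower. The median log2 ratio was 0.38 against 0.03 for the members and 0.02 for all entered genes. With TMM, 41 of the 42 had a ratio above 0, and total counts lower each of these ratios by 0.12. The embryonic stem cell markers had a median of 0.27 and the feeder markers one of -1.51, and their part in the replication values was not tested. Mcm5 and Mcm7 of the replicative helicase, the genes with most counts, had 8460 knockdown and 7001 control counts (0.19, 0.14 to 0.23) and 8322 knockdown and 6854 control counts (0.19, 0.15 to 0.24). Gins3, at the top of the range and named for that reason, had 415 knockdown and 201 control counts (0.96, 0.71 to 1.21).

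**Figure D5:**
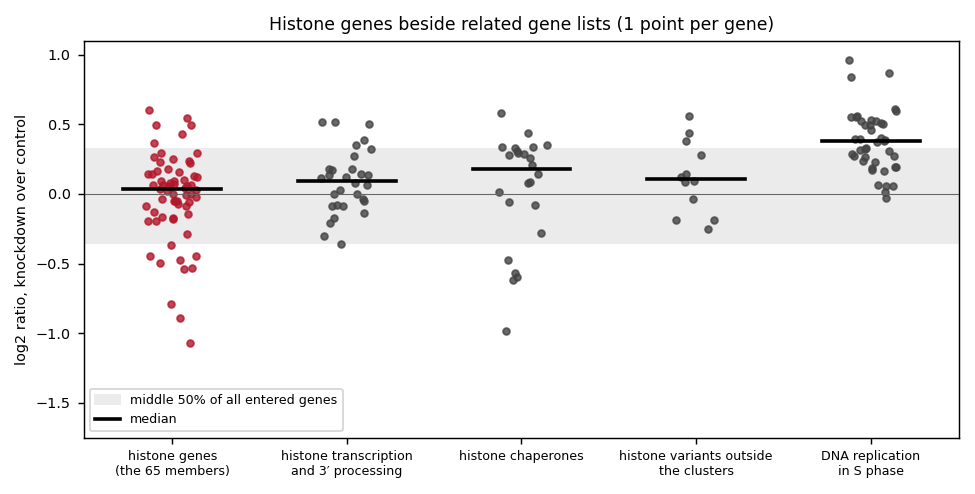
Log2 ratio of knockdown over control (y axis) for single genes (points, spread sideways by chance for legibility) of the 65 members and of 4 related lists (x axis), with black bars at the medians and a grey band for the middle 50% of all entered genes. The members centre on 0.03 and the replication genes on 0.38, and Hist4h4 is the lowest point.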

How the data were processed

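The authors deposited raw counts per gene for each library, beside each gene's length. DESeq, featureCounts, HISAT2 and Trim Galore, and the builds GRCm38 and mm10, are named in the submitters' processing notes. No version, strand setting or treatment of reads with several matches was given in the sources used here. Of 46983 identifiers 46488 matched GENCODE M21.

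TMM factors (0.960 in the knockdown, 1.04 in the control library) came from edgeR 4.0.16 in R 4.3.3. DESeq2 size factors also came from R, and the rest was done with scipy 1.17.1, pandas 2.3.3, numpy 2.4.6 and matplotlib 3.10.9 under Python 3.11.15. Ratios used no pseudocount, a count of 0 was set to 3, and intervals of ratios were exact (Clopper-Pearson). Shares of a library had Wilson intervals. Simulated counts with known changes were used to check the calls. Intervals of differences between sums were normal on the log2 scale and treat the counts as independent.

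Members and lists were chosen with earlier results of these data known. Every member could be named. Values were printed for called members, the 5 highest and 5 lowest ratios, the 3 highest levels in each class, all members outside Hist1, the 2 genes with most counts of each list and 6 processing genes. Hist1h1b and the genes said to be named after their values were seen lie outside that rule. The stem-loop search covered annotated transcripts only, not the DNA past their ends, and 1 name on the chaperone list matched no gene. Alternatives were total counts, DESeq2 1.42.0 size factors, TMM on nuclear protein-coding genes, no filter, 5 CPM, 1.5-fold, and sums without shared-sequence members or without the member with the most counts.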

Additional observations from a re-analysis of the deposited data

Results flagged for a closer look

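Pseudogenes with histone names are outside the members, yet 3 of them held counts in both libraries, which is why they are listed. Hist1h2al had 3261 counts under the linc1557 hairpin and 3091 under the control hairpin (log2 ratio -0.01, -0.08 to 0.06). Hist1h2aj had 2883 knockdown and 2430 control counts (0.16, 0.08 to 0.24). Hist3h2bb-ps, which lies beside the Hist3 genes on chromosome 11, had 126 knockdown and 189 control counts (-0.67, -1.01 to -0.34), a value close to that of the Hist3 sum. Their share of sequence with the members was not tested, and no replicate exists against which these values could be set.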

How the results depend on the processing

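No paired analysis was possible because each group had 1 library, and no library could be left out. With total counts, 2 members were called lower and the median was -0.086. Sums were then -0.11 for all members, -0.061 for Hist1, -0.32 for Hist2, -0.75 for Hist3, -1.19 for Hist4, 0.090 for H1, -0.041 for H2A, -0.053 for H2B, -0.14 for H3 and -0.34 for H4, and 1 chaperone gene was lower. That scaling turned the sign of 16 members. With DESeq2 size factors sums were 0.046 for all, 0.10 for Hist1, -0.16 for Hist2, 0.25 for H1, 0.12 for H2A, 0.11 for H2B, 0.021 for H3 and -0.18 for H4. With TMM on nuclear protein-coding genes they were 0.028 for all, 0.078 for Hist1, 0.10 for H2A, 0.087 for H2B, 0.0020 for H3 and -0.20 for H4. Without the 34 members of shared sequence they were -0.76 for Hist2, 0.022 for H2A, 0.14 for H2B, 0.080 for H3 and -0.25 for H4. Without the member with most counts they were 0.18 for H1 and -0.27 for H4. At 1.5-fold, 1 member was called higher and 3 lower, beside 11.5% and 16.4% of all genes, and 3 chaperone genes were lower and 5 replication genes higher. H1 stayed above and H4, Hist2, Hist3 and Hist4 below equality under each scaling tried. The other sums stayed within their counting intervals, and neither filter changed a count of members called.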
